A study of Mus musculus with 8 samples.

Results

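The Leydig steroidogenesis genes described here are 10 genes that carry out, drive or mark androgen synthesis in the interstitial cells of the testis. They were chosen by symbol, as Nr5a1, Lhcgr, Star, Cyp11a1, Hsd3b1, Hsd3b6, Cyp17a1, Hsd17b3, Srd5a1 and Insl3, and all 10 were found among the 23983 genes of the table. RNA-seq had been made from C57BL/6J mouse testis on days 12, 16 and 24 after birth (d12, d16, d24) and from adult testis. The study used these stages to find promoters that become active late in spermatogenesis, and the adult age is given only as adult. Each library came from total RNA of a piece of whole testis, with no sorting of cells, and the labels name no treatment, transgene or mutant allele. How many animals went into a library is not given in the sources used here. There was 1 library per stage, so no spread between animals is known, no test was possible, and every interval below covers counting error only.

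Leydig cells lie between the seminiferous tubules and make testosterone under luteinizing hormone from the pituitary. Cholesterol is carried into mitochondria and cut to pregnenolone there, and enzymes of the endoplasmic reticulum turn pregnenolone into androstenedione and then testosterone. In the mouse, fetal Leydig cells are followed after birth by a second, adult lineage. Its immature cells are known for reducing androgens with 5alpha-reductase, and its mature cells for 17beta-hydroxysteroid dehydrogenase 3, the 3beta-hydroxysteroid dehydrogenase encoded by Hsd3b6, and the peptide hormone INSL3.

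Between d12 and adult the 10 genes did not move as 1 block. Insl3 was 15.5-fold higher in the adult library than at d12 (95% counting interval 13.0 to 18.8), Hsd3b6 8.18-fold (6.39 to 10.6), Cyp17a1 4.59-fold (4.26 to 4.95) and Cyp11a1 4.39-fold (3.82 to 5.07). Hsd17b3 was 2.19-fold higher (1.84 to 2.60), after a low at d24. Nr5a1 was 2.84-fold lower in the adult library (2.39 to 3.39). These are ratios of FPKM, the fragments per kilobase of transcript and per unit of sequencing depth as the authors scaled them, and the sizes and in part the directions depend on that scaling, as described after the single genes.

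Promoter sequences are shown for the 3 genes with the clearest stage differences or the closest relationship, namely the neighbouring Hsd3b1 and Hsd3b6 and the adult-high Insl3. RefSeq promoters on GRCm38 were matched for 7 of the 10 genes, and each sequence below is the 150 bases before the annotated start, read 5′ to 3′ on the strand of the gene. Capitals mark a match to the GATA motif, searched on both strands with 4 spellings. These were AGATAA with its variant AGATAG, and also TGATAA with its variant TGATAG. The Hsd3b1 window lies at chr3:98859795-98859944 on the minus strand, that of Hsd3b6 at chr3:98814444-98814593 on the minus strand, and that of Insl3 at chr8:71689102-71689251 on the plus strand, inside the last intron of Jak3.
Hsd3b1: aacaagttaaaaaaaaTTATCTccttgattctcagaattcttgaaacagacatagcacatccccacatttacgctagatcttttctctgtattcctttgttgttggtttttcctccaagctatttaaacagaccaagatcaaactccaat
Hsd3b6: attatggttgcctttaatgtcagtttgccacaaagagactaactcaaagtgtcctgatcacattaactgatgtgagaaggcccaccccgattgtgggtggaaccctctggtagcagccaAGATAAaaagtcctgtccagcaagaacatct
Insl3: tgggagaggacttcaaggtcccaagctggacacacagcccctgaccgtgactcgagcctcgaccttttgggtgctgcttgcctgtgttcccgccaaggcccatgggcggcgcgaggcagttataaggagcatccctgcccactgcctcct
The match in Hsd3b1 is AGATAA read on the opposite strand, at bases -134 to -129 from the start, and a second match, TGATAG, lies outside the printed bases at -186 to -181. Hsd3b6 has its single match, AGATAA, close to the start, at -31 to -26. Insl3 has none in 250 bases. A GATA match was present in the 250 upstream bases of 26.5% of 32851 promoters. The half-site of the Nr5a1 product, searched as AAGGTCA or with the variant AAGGCCA on both strands, was found in 9.09% of these promoters and in none of those matched for the 7 genes. Other spellings of the half-site were not searched, so its absence refers to these spellings alone. A match here is a description of letters and not of a bound site.

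Nr5a1 (GRCm38 chr2:38692656-38714542, minus strand) encodes the nuclear receptor SF-1, a regulator of steroidogenic genes that Sertoli cells also express. Its level was 17.7 FPKM at d12, 9.66 at d16, 11.04 at d24, then 6.24 in the adult library, from 654, 356, 715 and 164 fragments. It was highest at d12 and lowest in the adult library, and the 95% intervals of these 2 values, 16.4 to 19.1 and 5.32 to 7.27 FPKM, did not overlap. With the libraries scaled on Sertoli markers, the difference between adult and d12 changed sign, from -1.49 to 0.75 on the log2 scale.

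Lhcgr (chr17:88716384-88792059, minus strand), the receptor of luteinizing hormone, was low throughout, at 2.22, 1.69, 1.87 and 2.64 FPKM at d12, d16, d24 and adult. The adult value was 1.19-fold that of d12 (0.949 to 1.48), an interval that includes no difference. Star (chr8:25808474-25815982, plus strand), which delivers cholesterol to the inner mitochondrial membrane, was at 18.8 FPKM at d12, 7.29 at d16, 11.1 at d24, then 15.1 in the adult library. Its lowest value was at d16, 2.58-fold under d12 (2.29 to 2.92), and the adult value stayed at 0.800 of d12 (0.718 to 0.889). The fragments of Star came out less close to whole numbers than those of the other genes with 1 transcript, so the transcript length the authors used for it may differ.

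Cyp11a1 (chr9:57998024-58027031, plus strand), the enzyme that cuts the side chain of cholesterol, was measured at 11.3 FPKM at d12, 11.1 at d16, 16.5 at d24, then 49.4 in the adult library. The first pair of stages did not differ beyond counting error, with a ratio of 0.986 (0.826 to 1.18), and the adult library stood 3.00-fold above d24 (2.70 to 3.32). Cyp17a1 (chr19:46667165-46673000, minus strand), which catalyses the 17alpha-hydroxylase and 17,20-lyase steps, was at 39.6, 24.6, 45.0 and 181.9 FPKM, from 914, 565, 1822 and 2986 fragments. Both genes were highest by far in the adult library, and Cyp17a1 was 4.04-fold above d24 there (3.81 to 4.28). Of all 45 pairs of the 10 genes, this pair had the most alike profiles, at a distance of 0.594 between the mean-centred log2(FPKM + 0.1) values of the 4 libraries.

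The 3beta-hydroxysteroid dehydrogenases are encoded by a cluster of near copies on chromosome 3. Hsd3b1 (chr3:98842356-98859794, minus strand) was at 42.1 FPKM at d12, 22.5 at d16, 28.1 at d24, then 58.9 in the adult library. Its neighbour Hsd3b6 (chr3:98805504-98814443, minus strand) was at 3.32, 24.6, 37.9 and 27.2 FPKM, from 75, 555, 1499 and 437 fragments. Hsd3b1 had the highest value of the 10 genes at d12 and was lowest in its own course at d16, the stage at which Hsd3b6 had gone up 7.41-fold over d12 (5.82 to 9.57).
In the order of all 23983 genes by FPKM, which does not depend on the scaling of a library, Hsd3b6 stood at place 9283 at d12, 2762 at d16, 2677 at d24, then 3993 in the adult library. Its higher value at d16 than at d12 held under all 5 scalings, with log2 differences of 2.70 to 3.52.

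The Hsd3b1 and Hsd3b6 transcripts are 88.7% identical over 1307 aligned bases, and 2.104% of the stretches of 50 bases in Hsd3b1, the length of a read, also occur in Hsd3b6. Hsd3b6 shares more with Hsd3b2 and Hsd3b3, at 13.5% and 12.5% of its stretches of 50 bases, so fragments could be split between these genes by the counting. Hsd3b2, Hsd3b3, Hsd3b4 and Hsd3b5 were each at 2.12 FPKM or less in every library. Hsd3b4 was the highest of them in the adult library and Hsd3b5 was listed at 0 in 3 libraries.

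Hsd17b3 (chr13:64058274-64089262, minus strand) reduces androstenedione to testosterone. Its level was 13.6 FPKM at d12, 6.10 at d16, 2.27 at d24, then 29.7 in the adult library, from 219, 98, 64 and 341 fragments. It went down over the 3 juvenile stages and was highest in the adult library, 13.1-fold above d24 (10.0 to 17.4). Its place among all genes was 4345 at d12, 7583 at d16, 11413 at d24, then 3795 in the adult library. The adult excess over d24 held under all 5 scalings, at 3.17 to 4.49 on the log2 scale, but the difference between adult and d12 went from 1.12 to -0.088 when the libraries were scaled to the same FPKM sum.

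Srd5a1 (chr13:69573449-69611485, minus strand), a 5alpha-reductase that is also expressed outside Leydig cells, was low in all libraries, at 2.097 FPKM at d12, 3.60 at d16, 2.60 at d24, then 1.39 in the adult library. It was highest at d16, 1.72-fold above d12 (1.27 to 2.34), and lowest in the adult library, where 33 fragments were found. The adult value was 0.535 of that at d24 (0.355 to 0.784), and its ratio to d12 of 0.662 (0.424 to 1.02) was within counting error of no difference. Under Sertoli scaling the adult value was above d12, by 1.57 on the log2 scale.

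Insl3 (chr8:71689252-71690577, plus strand), the peptide hormone of Leydig cells that acts on testis descent, was at 17.5 FPKM at d12, 15.3 at d16, 50.9 at d24, then 272.8 in the adult library, from 129, 112, 656 and 1428 fragments. The d12 and d16 values had overlapping intervals, d24 was 3.33-fold above d16 (2.72 to 4.10), and adult was 5.36-fold above d24 (4.89 to 5.89). It went from place 3504 among all genes at d12 to place 439 in adult testis. Its second exon is also the last exon of Jak3, a kinase gene on the same strand, so 406 of its 587 exon bases (69.2%) are shared. Jak3 itself was at 0.163, 0.140, 0.496 and 0.671 FPKM.

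**Figure D1:**
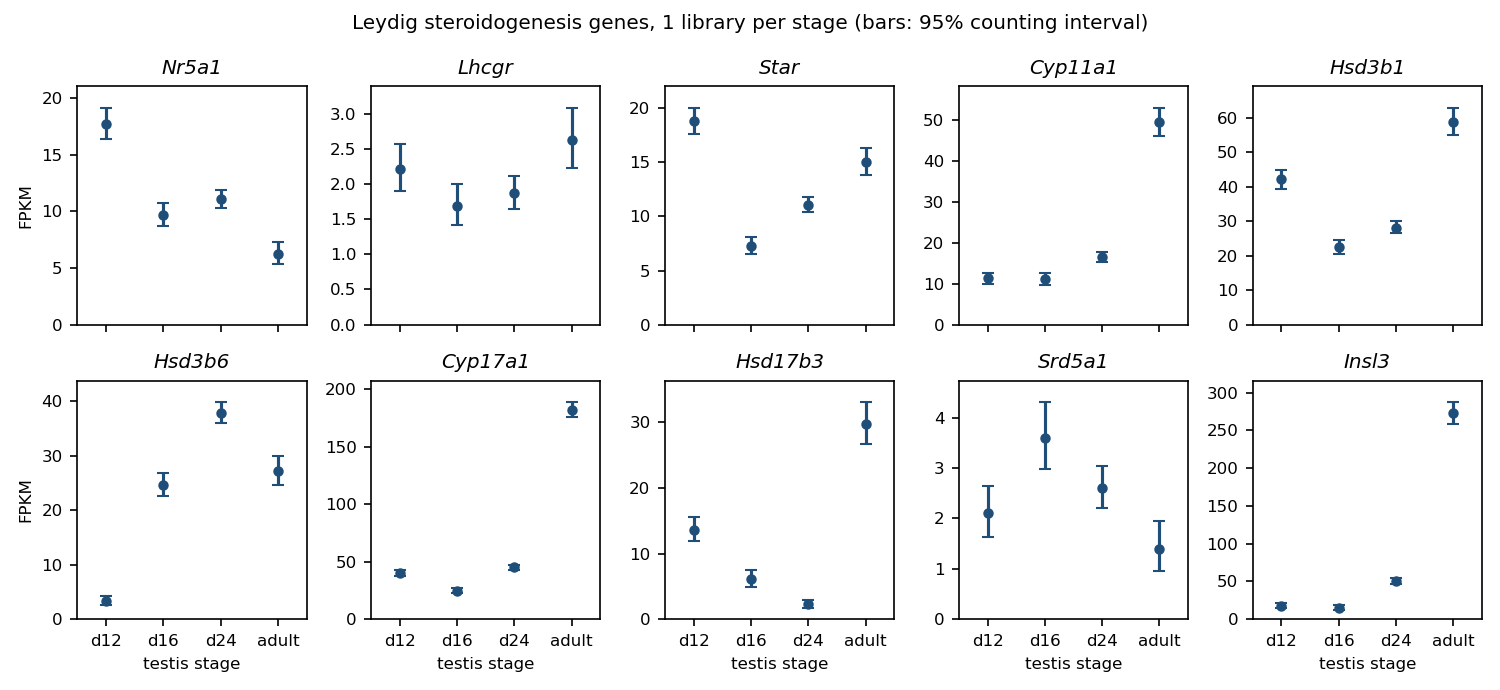
FPKM (vertical axis, from 0, a different range in each panel) of the 10 genes in the 4 libraries, 1 for each stage, and bars for the 95% counting interval. Cyp11a1, Cyp17a1, Insl3, Hsd3b1 and Hsd17b3 were highest in the adult library, Hsd3b6 at d24, Srd5a1 at d16 and Nr5a1 at d12.

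The order of the genes by level, which is per length and within a library, differed between the stages. At d12 Hsd3b1 and Cyp17a1 led with overlapping intervals, and Star, Nr5a1, Insl3, Hsd17b3 and Cyp11a1 followed, each overlapping the next. At d16 Hsd3b6, Cyp17a1 and Hsd3b1 formed the top, each overlapping the next. At d24 Insl3 and Cyp17a1 led and overlapped, with Hsd3b6 next, and Srd5a1, Hsd17b3 and Lhcgr were lowest, each overlapping the next. In the adult library the 5 highest, Insl3, Cyp17a1, Hsd3b1, Cyp11a1 and Hsd17b3, were in this order with no overlap between neighbours, except that Hsd17b3 overlapped Hsd3b6, the next gene down. Of the summed FPKM of the 10 genes, Insl3 made up 10.4% at d12, 12.1% at d16, 24.5% at d24, then 42.3% in the adult library. Cyp17a1 held 23.6%, 19.4%, 21.7% and 28.2%. Hsd3b1 went from 25.0% at d12 to 9.12% in adult testis, and Nr5a1 from 10.5% to 0.967%.

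Ratios between 2 of the genes within a library do not depend on the scaling between libraries. They can depend on the mix of cells where the 2 genes do not both come from Leydig cells. Nr5a1 and Srd5a1 are also expressed outside Leydig cells, and the part of other cells in these ratios was not tested. Hsd3b6 over Hsd3b1 was 0.0790 at d12 (0.0615 to 0.1001), 1.097 at d16 (0.968 to 1.24), 1.35 at d24 (1.24 to 1.46), then 0.462 in the adult library (0.411 to 0.519). The 2 genes were thus at like levels at d16, Hsd3b6 was above Hsd3b1 only at d24 beyond counting error, and Hsd3b1 was again the higher one in the adult library. Hsd17b3 over Srd5a1, the enzyme of testosterone synthesis over an enzyme that reduces it further, was 6.48 at d12 (4.93 to 8.61), 1.69 at d16 (1.28 to 2.23), 0.873 at d24 (0.641 to 1.18), then 21.4 in the adult library (14.96 to 31.6). It was lowest at d24, where the interval includes equal levels, and the adult ratio was 24.5-fold that of d24.

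Insl3 over Nr5a1 was 0.990 at d12, 1.58 at d16, 4.61 at d24, then 43.7 in the adult library (37.2 to 51.7), a 44.2-fold difference between adult and d12. Sertoli cells also express Nr5a1, so this is a ratio in whole testis and not one within Leydig cells. Cyp17a1 over Cyp11a1 was between 2.21 at d16 and 3.68 in adult testis, and the adult ratio was 1.04-fold that of d12. Star over Cyp11a1 was 1.67 at d12, 0.657 at d16, 0.670 at d24, then 0.305 in the adult library (0.273 to 0.340), so that the d12 library had more Star than Cyp11a1 and the other libraries less. The level of this last ratio depends on the transcript lengths used for both genes. Its 5.49-fold difference between d12 and adult does not, provided that the mix of Cyp11a1 transcripts was alike in both libraries, which was not tested.

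**Figure D2:**
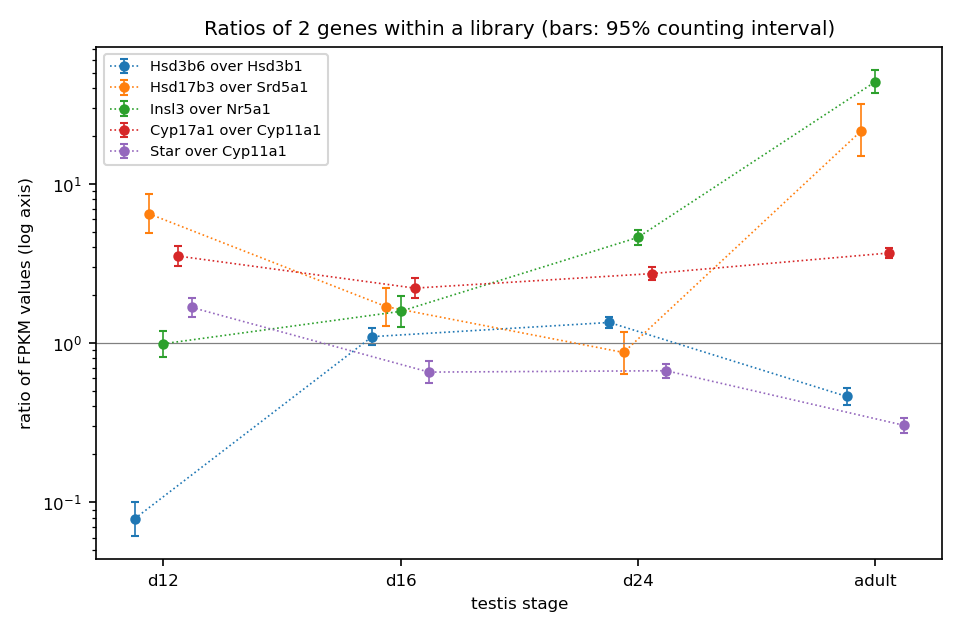
Ratio of the FPKM values of 2 genes (vertical log axis) in each of the 4 libraries, with bars for the 95% counting interval and dotted lines joining the same pair; points are shifted sideways for view. Insl3 over Nr5a1 was highest in the adult library at 43.7, Hsd17b3 over Srd5a1 passed through a low of 0.873 at d24, and Hsd3b6 over Hsd3b1 went from 0.0790 at d12 to 1.35 at d24.

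For the comparison of stages across the whole table, a gene was counted where the ratio of (FPKM + 0.1) was 2 or more in either direction, among 15219 genes with at least 1 FPKM in 1 library or more. All 10 genes passed that limit. From d12 to adult, 5 of 10 were higher past 2-fold, against 36.4% of all genes tested, and 1 of 10, Nr5a1, was lower, against 24.1%. From d12 to d16, 1 of 10, Hsd3b6, was higher, against 12.5% of all genes, and 2 of 10, Star and Hsd17b3, were lower, against 4.98%. From d16 to d24, Insl3 was the 1 higher gene, against 28.2%, and Hsd17b3 the 1 lower gene, against 9.2%. From d24 to adult, 5 of 10 were higher, namely Cyp11a1, Hsd3b1, Cyp17a1, Hsd17b3 and Insl3, against 12.7% of all genes, and 0 of 10 were lower, against 2.95%. With 10 genes, 1 gene more or less moves such a share widely, and nothing is read from the counts of 1 about the 10 genes as a group.

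The median log2 difference of the 10 genes was 0.80 from d12 to adult, beside 0.21 for all genes tested. It was -0.53 from d12 to d16, beside 0 for all genes, 0.45 from d16 to d24, beside 0.13, and 0.77 from d24 to adult, beside -0.010. These comparisons share libraries with each other, and each is given only by its own values.

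The scaling between the libraries moved these counts. When the libraries were scaled to the same FPKM sum, the median of all genes between d12 and adult shifted by -1.28 on the log2 scale, and 2 of 10 genes, Hsd3b6 and Insl3, stayed higher past 2-fold, against 22.7% of all genes. With the upper quartile the shift was -0.82 and 4 of 10, Cyp11a1, Hsd3b6, Cyp17a1 and Insl3, were higher, against 26.8%. With the 6 Sertoli markers the shift was 2.32 and 9 of 10, all but Nr5a1, were higher, against 82.2%. These counts moved with those of all genes, and the median of the 10 genes relative to that of all genes stayed between 0.52 and 0.67. Insl3 and Hsd3b6 were the 2 genes higher in adult than d12 past 2-fold under all 5 scalings, at 2.74 to 6.20 and 1.79 to 5.21 on the log2 scale. From d24 to adult, Cyp11a1, Cyp17a1, Hsd17b3 and Insl3 were higher past 2-fold under all 5 scalings, and Hsd3b1 under 3 of them.

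**Figure D3:**
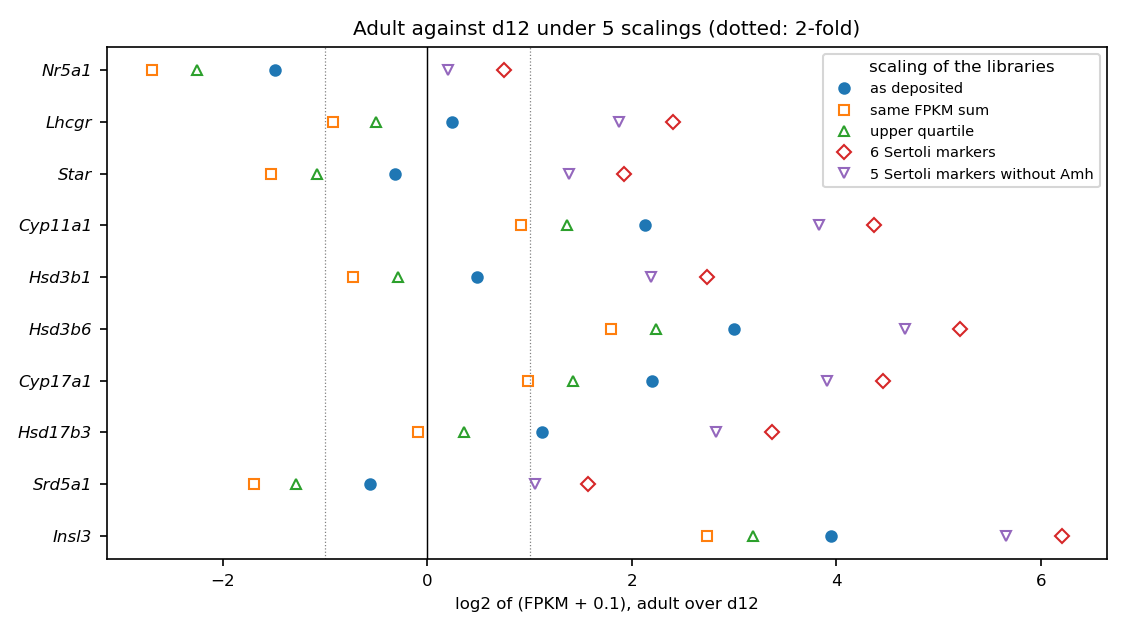
Log2 of the ratio of (FPKM + 0.1), adult over d12 (horizontal axis), of the 10 genes under 5 ways of scaling the libraries, 1 point per scaling, with dotted lines at 2-fold. Insl3 and Hsd3b6 lie to the right of the 2-fold line under each scaling, while Nr5a1 ranges from -2.69 to 0.75 and Hsd17b3 from -0.088 to 3.37.

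The d12 library had 8910413 implied fragments on genes, the d16 library 9450333, the d24 library 23689457 and the adult library 12053916, and the summed FPKM went from 283580 at d12 to 659202 in adult testis. For a transcript of 1 kb, 3 fragments corresponded to 0.137 FPKM at d24 and 0.336 FPKM in the adult library, the lowest and the highest such value. The tissue label was met by germ cell markers. The 6 markers of elongating spermatids summed to 13.1, 4.42, 2424 and 26742 FPKM at d12, d16, d24 and adult, and all 6 markers of each of 3 germ cell stages, pachytene spermatocytes and round and elongating spermatids, were higher in adult than d12 past 2-fold under all 5 scalings.

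In RNA of a whole piece of testis, fewer cells of a type and less RNA per cell cannot be told apart. Markers of the other somatic cells moved between the same libraries. The 6 Sertoli markers summed to 164.7 FPKM at d12, 119.4 at d16, 70.5 at d24, then 49.0 in the adult library, with 5 of 6 lower in adult than d12 past 2-fold and Amh listed at 0 in the adult library. Of the peritubular myoid markers, 4 of 6 were lower and 1, Actg2, was higher. Their sum was lowest at d24, at 151.7 FPKM, and highest in adult testis, at 307.6 FPKM. Actg2 alone, at 9.47, 5.78, 46.5 and 225.0 FPKM, made up most of the adult sum. Each other myoid marker was lower in the adult library than at d12, such as Acta2 at 34.2 beside 112.9 FPKM. Of the macrophage markers, 0 of 4 tested passed 2-fold, and the sum ranged from 11.97 FPKM in adult testis to 18.0 at d16. Of the endothelial markers, 4 of 6 were lower, with sums of 25.6, 18.0, 8.07 and 10.9 FPKM, and of the spermatogonial markers 5 of 6 were lower, with sums of 204.7, 121.8, 55.0 and 38.1 FPKM. These counts are those of the deposited scaling, in which 24.1% of all genes were lower. Relative to the median of all genes, the myoid list lay between -1.38 and -1.55 and the endothelial list between -1.43 and -1.71 under the 5 scalings.

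The summed FPKM of the 10 Leydig genes, at 168.3, 126.4, 207.2 and 645.2, was 1.02 times that of the Sertoli markers at d12, 1.06 times at d16, 2.94 times at d24 and 13.2 times in adult testis. Against the macrophage markers, which share the interstitium with Leydig cells, it was 10.3, 7.03, 15.1 and 53.9 times. The sum of the 10 genes was thus higher in the adult library against both lists than in the juvenile ones. The part of these other cells in the results was not tested. The 6 genes of the adrenal cortex list summed to 3.98 FPKM at d12, 4.56 at d16, 3.38 at d24, then 5.17 in the adult library. The defining enzymes Cyp21a1, Cyp11b1 and Cyp11b2 were at 0.434 FPKM or less in every library, with at most 17 fragments. Of the 2 genes of this list that could be tested, Mrap was higher in adult than d12 past 2-fold and Akr1b7 was lower, at 1.92, 1.92 and 0.292 FPKM at d12, d16 and d24 and listed at 0 in the adult library.

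A list of 8 genes known from immature or fetal Leydig cells was compared with a list of 8 known from adult Leydig cells. These lists, like the others, were chosen with earlier results of these data known. The shares of all genes given beside them are thus no independent comparison. Of the immature list, 6 could be tested and 5 were lower in adult than d12 past 2-fold, against 24.1% of all genes. The median was -2.59 on the log2 scale beside 0.21 for all genes. Lists of other cells also had negative medians, at -2.57 for spermatogonia, -1.78 for Sertoli, -1.36 for endothelial and -1.26 for myoid cells and -0.44 for macrophages. Srd5a1, the 1 gene of this list among the 10, was the one that did not pass. Of the adult list, 7 could be tested and 5 were higher past 2-fold, against 36.4% of all genes, with a median of 3.00. Of these, 3 (Hsd3b6, Hsd17b3 and Insl3) are among the 10 genes. The 2 others were Ptgds and Sult1e1, so the list adds few genes to those already described. Relative to the median of all genes, the immature list lay between -2.70 and -2.90 and the adult list between 1.93 and 2.85 under the 5 scalings. The value of 1.93 came with the same FPKM sum, under which 8 genes of the adult list could be tested.

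Among the immature genes, Thbs2, a matrix protein, was at 10.5 FPKM at d12, 3.62 at d16, 0.692 at d24, then 0.360 in the adult library. Pdgfra, a growth factor receptor of interstitial progenitors and other mesenchymal cells, was at 59.1, 35.3, 14.3 and 7.68 FPKM. Dlk1, a Notch ligand relative, was at 2.28, 1.15, 0.208 and 0.111 FPKM. Each of these 3 was lower past 2-fold in adult than d12. From d24 to adult 0 of the 6 tested passed 2-fold, while 2.95% of all genes were lower and 12.7% higher. Nr2f2, the nuclear receptor COUP-TFII, was at 9.93, 7.38, 3.29 and 1.99 FPKM, and Akr1c14, a 3alpha-hydroxysteroid dehydrogenase of the immature cells, at 3.20, 2.55, 1.51 and 1.15 FPKM. The receptors Mc2r and Crhr1 of fetal Leydig cells stayed under 1 FPKM in every library and were not tested.

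Among the adult genes, Sult1e1, an estrogen sulfotransferase, was at 0.507 FPKM at d12, 0.317 at d16, 0.144 at d24, then 26.6 in the adult library. It was 52.5-fold above d12 in the adult library (26.3 to 122.7), from 8 fragments at d12. Ptgds, a prostaglandin D synthase, was at 0.298, 0.199, 0.509 and 17.1 FPKM, with 3 fragments at d12 and an adult ratio to d12 of 57.6 (19.2 to 283.0). Both were near the limit of counting until d24. Vcam1, an adhesion molecule, was at 17.7, 14.3, 16.3 and 23.6 FPKM, and Prlr, the prolactin receptor, at 4.57, 5.08, 3.92 and 7.20 FPKM, both within 2-fold. Hsd11b1, a marker of mature Leydig cells, stayed under 1 FPKM, at 0.711, 0.0594, 0.101 and 0.163 FPKM, with 2 fragments in the adult library.

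**Figure D4:**
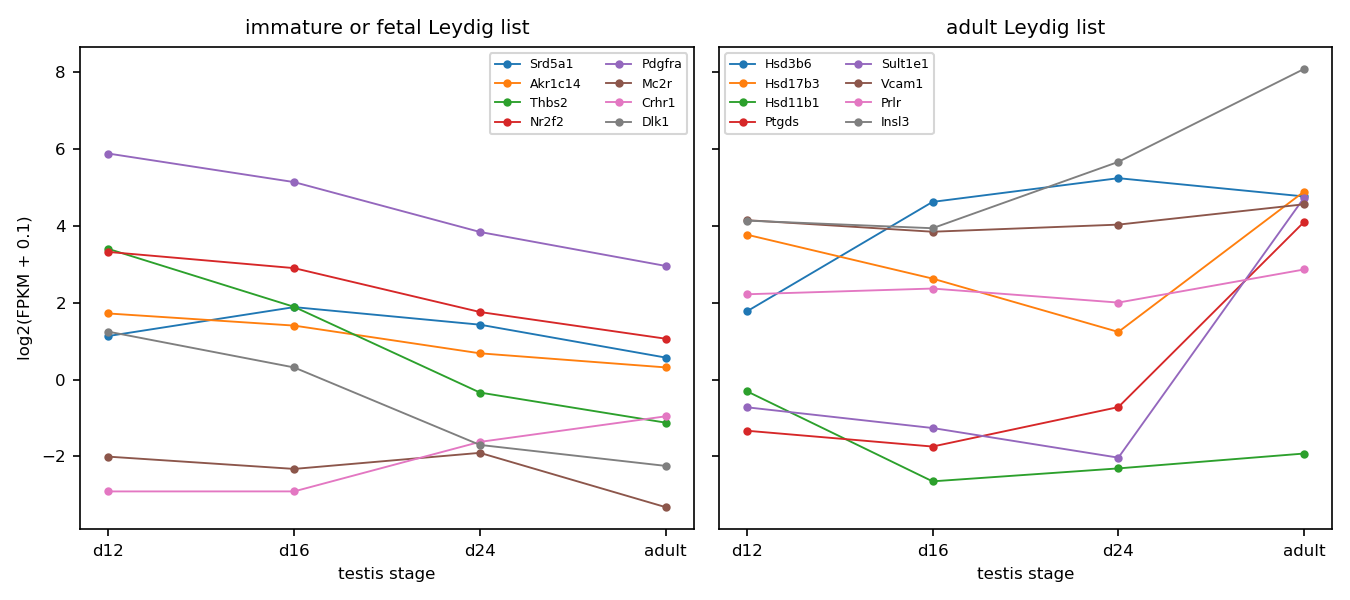
Log2(FPKM + 0.1) (vertical axis) at the 4 stages of the 8 genes of the immature or fetal Leydig list (left) and the 8 of the adult Leydig list (right), 1 line per gene and 1 library per stage. Thbs2, Pdgfra, Dlk1, Nr2f2 and Akr1c14 are lower in the adult library than at d12, while Sult1e1 and Ptgds lie near the floor until d24 and reach 26.6 and 17.1 FPKM in the adult library.

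Other genes supply electrons and cholesterol to the pathway. Of 8 redox partners and genes of cholesterol entry, 1 was higher in adult than d12 past 2-fold, against 36.4% of all genes, and 2 were lower, against 24.1%, with a median of -0.77. The count of lower genes is near that of all genes. Fdx1, the ferredoxin that serves CYP11A1, was at 14.9, 11.1, 13.5 and 16.5 FPKM and within 2-fold of itself at all stages. Cyb5a, the cytochrome b5 that aids the lyase step of CYP17A1, was at 57.2, 37.9, 21.3 and 20.2 FPKM, and Tspo, an outer mitochondrial membrane protein, at 3.82, 1.68, 1.17 and 1.05 FPKM. These were the 2 lower genes in the deposited values. Lipe, the hormone-sensitive lipase that frees cholesterol from its esters and is also known in germ cells, was the 1 higher gene, at 1.32, 1.26, 6.97 and 35.8 FPKM. Relative to the median of all genes, the median of this list lay between -0.88 and -1.07 on the log2 scale under the 5 scalings.

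Of 10 other steroid enzymes, 7 could be tested, 2 were higher in adult than d12, against 36.4% of all genes, and 4 were lower, against 24.1%, with a median of -1.26. The higher ones were Sult1e1 and Cyp19a1, the aromatase, which was listed at 0 at d12 and was at 0.270 FPKM at d16, 0.959 at d24, then 2.32 in the adult library. Against the value of 3 fragments in the d12 library, the adult level of Cyp19a1 was at least 23.6-fold higher. The lower ones were Akr1c14, Hsd17b7 at 3.72, 1.80, 1.25 and 1.496 FPKM, Cyp7b1 at 1.11, 0.702, 0.0841 and 0.311 FPKM, and Hsd17b1 at 1.46, 0.182, 0.173 and 0.0852 FPKM. Hsd17b1 had 1 fragment in the adult library, and its d12 level was 17.1-fold the adult one (2.79 to 702.7). Relative to the median of all genes, the median of this list lay between -0.48 and -1.46 under the 5 scalings, with 5 genes left to test under Sertoli scaling.

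Of 14 genes of the LH and SF-1 network, 13 could be tested, 2 were higher in adult than d12, against 36.4% of all genes, and 8 were lower, against 24.1%, with a median of -1.37. The lower genes included the nuclear receptor Nr0b1 at 20.1, 18.0, 12.1 and 9.13 FPKM and the transcription factor Gata4 at 9.32, 5.05, 4.06 and 3.54 FPKM, genes that Sertoli cells also express. Ptch1, the hedgehog receptor, was at 13.2, 8.10, 3.31 and 1.46 FPKM, and the hedgehog target Gli1 at 1.74, 1.00, 0.559 and 0.0306 FPKM, with 1 fragment in the adult library. Nr2f2 and Pdgfra, also lower, are given above.
The 2 higher genes were Mrap, a melanocortin receptor partner, at 1.45, 2.02, 2.39 and 4.30 FPKM, and Rxfp2, the receptor of INSL3. Rxfp2 was listed at 0 at d12 and was at 0.449 FPKM at d16, 2.94 at d24, then 3.85 in the adult library, at least 53.4-fold higher in adult testis than the value of 3 fragments at d12. Relative to the median of all genes, the median of this list lay between -1.50 and -1.58 under the 5 scalings.

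**Figure D5:**
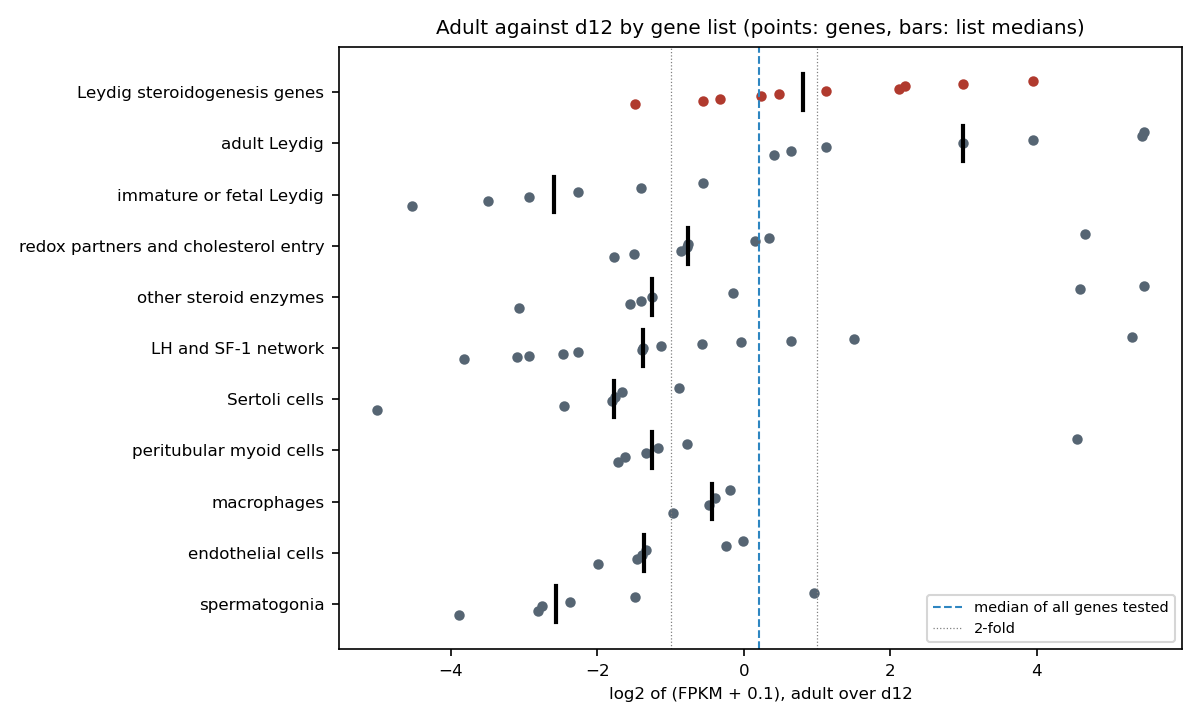
Log2 of the ratio of (FPKM + 0.1), adult over d12 (horizontal axis), in the deposited scaling, with 1 point per gene tested and a black bar at the median of each list. The Leydig steroidogenesis genes spread from -1.49 for Nr5a1 to 3.95 for Insl3 around a median of 0.80, the adult Leydig list has a median of 3.00, and the immature or fetal list one of -2.59.

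For 4 of the genes, the profiles most like theirs were found among 10942 genes with at least 5 FPKM in 1 library, as the smallest distance between mean-centred log2(FPKM + 0.1) values over the 4 libraries. The nearest to Insl3 were Paqr5 at a distance of 0.225, Ccdc91, Habp4, 1700048M11Rik and Clpb, and 15 genes lay within 0.5. The nearest to Hsd3b6 were Mlc1 at 0.119, Stambp, Tdrd5, Kctd7 and 4930463O16Rik, with 17 genes within 0.5. The course of Tdrd5 was 8.95, 66.4, 109.3 and 82.0 FPKM. For Hsd17b3 the nearest was Mlkl at 1.03, followed by Gsdmd, Angptl7, Fam134b and Kcnab3. No gene lay within 1.0, so its course as a whole had no close match among the genes searched. A lowest value at d24 was shared by each of these named genes, such as Mlkl at 5.11, 2.63, 1.71 and 8.50 FPKM. They were picked for likeness over the same 4 values, so this low follows at least in part from the choice. For Srd5a1 the nearest was Mrpl27 at 0.256, followed by Parp12, Tex12, H2afv and Pex7, and 87 genes lay within 0.5. With 4 points per gene these distances are a description of like courses only.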

How the data were processed

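Gene expression was read from 4 RNA-seq libraries of testis, 1 each for d12, d16, d24 and adult. The 4 H3K27Ac ChIP-seq samples were not used here. Reads had been aligned by the authors against the mm10 (GRCm38) build using TopHat2 2.1.0 on top of Bowtie 1.1.2, with RefSeq genes and 1 alignment kept per pair, and they deposited FPKM values computed with Cuffdiff of Cufflinks 2.2.1 with corrections for multi-mapped reads and sequence bias and without effective length correction. Near copies such as the Hsd3b genes can exchange reads in these steps. The scaling between libraries is not named, and the FPKM sums differ between libraries.

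Stages were assigned from the labels. The members and lists were chosen with earlier results of these data known. Fragments were recovered from the deposited FPKM values and the RefSeq GRCm38.p6 transcript lengths, as multiples of the value of 1 fragment, fitted on 14603 genes with 1 curated transcript. Of the values of up to 20 fragments, 91.8% to 92.5% lay within 0.05 of a whole number. For genes with several transcripts the shortest was used, so fragments of Cyp11a1 at d12 lie between 260 and 393 by transcript. Intervals are exact 95% Poisson intervals of a level and exact 95% Clopper-Pearson intervals of a ratio. A gene listed at 0 was given the limit of 3 fragments. Stages were compared as log2(FPKM + 0.1) for genes of at least 1 FPKM in 1 library or more, with a threshold of 2-fold and no test. Alternatives were 4 other scalings, a pseudocount of 1 FPKM, no filter, and a threshold of 1.5-fold. The scaling on 5 Sertoli markers without Amh, Hsd3b6 over the other Hsd3b genes, and list medians with genes at their limit were added after the values were seen.

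Named genes are the 10 members, the list genes with the lowest or highest difference or past 2-fold between d12 and adult, the 5 genes nearest in profile to each of 4 members, and Fdx1, Vcam1, Prlr, Hsd11b1, the Hsd3b copies and Jak3, which were named after their values were seen. Values of 2 genes of the LH and SF-1 list are not reported here. Copies were compared with blastn 2.17.0. The recovery of fragments was tested on simulated data of 14603 genes, where the unit came out within 1 percent in 4 of 4 libraries and 200 of 200 genes made 4-fold higher between d12 and adult were recovered. The 200 genes were drawn above the d12 levels of Lhcgr, Srd5a1 and Hsd3b6, with counting error as the only noise. Their recovery at a 2-fold threshold was thus nearly assured. It says nothing about low genes, false calls or differences between animals. Python 3.11.15, numpy 2.4.6, pandas 2.3.3, scipy 1.17.1 and matplotlib 3.10.9 were used.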

Additional observations from a re-analysis of the deposited data

How the results depend on the processing

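Of the alternative values computed, 65 stayed the same within counting error or within 1.5 times for counts and 66 moved. The 3 others changed sign from a difference of at least 2-fold. Sign changes from smaller differences between adult and d12 are counted among those that moved. These occurred for Lhcgr (0.24 to -0.93) and Hsd3b1 (0.48 to -0.73) with the same FPKM sum, and also with the upper quartile. They occurred for Star (-0.32 to 1.93) and Srd5a1 (-0.56 to 1.57) with the 6 Sertoli markers, and also without Amh. By construction, scaling on the summed FPKM or on Sertoli markers moves every gene together. With the same FPKM sum, 2 members were higher and 3 lower in adult than d12, against 22.7% and 51.6% of all genes. Under this scaling 2 were lower at d24 than d16, against 31.5%, and 2 were lower in adult than d24, against 10.6%. With the upper quartile, 3 were lower in adult than d12, against 41.9% of all genes, and 4 lower at d16 than d12, against 8.10%. With the 6 Sertoli markers or the 5 without Amh, 9 were higher and 0 lower in adult than d12, 2 higher and 0 lower at d16 than d12, and 6 or 5 higher and 0 lower at d24 than d16. Under these 2 scalings 82.2% and 70.9% of all genes were higher in adult than d12. The shares were 27.2% and 20.6% at d16 against d12, and 45.9% and 42.8% at d24 against d16. At most 2.29% of all genes were lower in any of these comparisons. With a threshold of 1.5-fold, 2 were higher and 5 lower at d16 than d12, against 20.2% and 15.1% of all genes. At this threshold 4 were higher at d24 than d16, against 37.0%, and 2 lower in adult than d24, against 9.72%. The log2 difference of Nr5a1 between adult and d12 was 0.75 and 0.21 with the 6 and the 5 Sertoli markers, and that of Hsd17b3 was -0.088 with the same FPKM sum. Within a library, a pseudocount of 1 gave 0.1004 for Hsd3b6 over Hsd3b1 at d12, and 4.71 and 12.9 for Hsd17b3 over Srd5a1 at d12 and in adult testis. Hsd3b6 over the sum of all Hsd3b genes was 0.492 at d16, 0.553 at d24, then 0.301 in the adult library, and over the summed other Hsd3b genes 1.24 at d24. Setting genes listed at 0 at their limit left the adult to d12 medians of the steroid enzyme, LH network and Sertoli lists as they were, and that of the 2 adrenal genes went from -1.42 to -0.66. Depth limited the low genes most: Srd5a1 rested on 33 fragments in adult testis. No replicate could be left out and no paired analysis was possible because each stage had 1 library, so differences between animals are unknown.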

Other observations

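Nr4a1, the orphan nuclear receptor NUR77 that responds to luteinizing hormone, was at 3.35 FPKM at d12, 0.452 at d16, 3.14 at d24, then 3.26 in the adult library, from 104, 14, 171 and 72 fragments. It was low in the d16 library, in which 6 of the 10 Leydig genes, namely Lhcgr, Star, Cyp11a1, Hsd3b1, Cyp17a1 and Insl3, also had their lowest deposited values. For Lhcgr, Cyp11a1 and Insl3 the d16 interval overlapped that of another stage. With the 6 Sertoli markers, the log2 difference of d16 from d12 was 0.29 for Lhcgr, 0.68 for Cyp11a1, 0.02 for Cyp17a1 and 0.51 for Insl3. It was -0.65 for Star and -0.19 for Hsd3b1. A link between Nr4a1 and these genes was not tested. Hsd3b4, a member of the Hsd3b cluster, was at 0.189, 0.710, 1.19 and 2.12 FPKM, from 4, 15, 43 and 32 fragments. Both genes were picked after their values were seen, and these values carry no test.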
